A study of Arabidopsis thaliana with 16 samples.

Results

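The genes described here are 51 cell wall genes of Arabidopsis thaliana among the 32833 genes of the deposited table: 30 genes of the xyloglucan endotransglucosylase/hydrolase family (XTH) and 21 alpha-expansins (EXPA). The set was assembled under the name of hydrolases, but of the XTH genes only XTH31 and XTH32 belong to the hydrolase subgroup. The members were chosen by name, as every gene listed as XTH or EXPA followed by a number, leaving out EXPA7 and EXPA18. Family genes listed under another symbol are not among the 51, which applies to TCH4 (XTH22), XTR6 (XTH23), EXGT-A3 (XTH27), EXP3 (EXPA3) and EXP26 (EXPA26). Enough counts for a test were found for 41 of the 51, made up of 27 XTH genes and 14 alpha-expansins.

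XTH enzymes cut chains of xyloglucan, the main hemicellulose of the growing wall, and join the cut end to another chain, while a small subgroup passes it to water and so shortens the chain. Alpha-expansins loosen the contact between cellulose and other wall polymers at acid pH without cutting them, which lets the wall yield to turgor. Both families are large, and their genes are used in different organs and respond to growth hormones, light and touch.

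Messenger RNA was sequenced from whole seedlings aged 9 days, grown without treatment on medium with 1% sucrose, in 16 libraries of 8 genotypes with 2 libraries each. The genotypes were wild type (WT, Col-0), the single mutants nup50c, nup82 and nup136, the double mutants nup50c nup82, nup50c nup136 and nup82 nup136, and nup50c nup82 nup136, the triple mutant. All 3 genes code for components of the basket on the inner face of the nuclear pore. Alleles are not named in the labels, nor is it stated that paired libraries are separate cultures, and p-values therefore measure only the spread between these samples.

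Total counts per library ran from 37923632 to 46194172, and no library was left out. NUP50C transcript stood at 21.2 to 33.5% of WT in the 4 genotypes that carry nup50c, and NUP136 at 40.4 to 59.8% in the 4 that carry nup136. These are means per genotype. NUP136 varied most between the libraries labelled nup82 nup136, with a mean of 28.65 CPM and an SD of 7.43 CPM. NUP82 stood at 66.9% in nup82. In the libraries labelled nup50c nup82, nup82 nup136 and nup50c nup82 nup136 it stood at 89.8%, 85.3% and 115.1%, so its level does not bear out those labels. As alleles are not named, a transcript level cannot decide whether the mutation is present. These 3 genotypes are therefore called labelled double or labelled triple mutants, and every direction that rests on them rests on the label. Levels of 1 gene across libraries are CPM after TMM scaling, and levels of different genes are compared only in the deposited FPKM, which are per gene length. A gene is said to have risen or fallen where its edgeR p-value, adjusted over all 22427 tested genes, was under 0.05.

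The 30 XTH genes of the set had about the same summed level in the labelled triple mutant and in WT, but another gene led them. That level was 1476.5 and 1480.3 FPKM in the 2 WT libraries and 1484 and 1486 FPKM in the 2 libraries of the labelled triple mutant, and across the other libraries it ran from 1152 FPKM in a nup50c library to 1680.1 FPKM in a nup50c nup136 library. XTH9, an XTH gene known from the shoot apex and young stems, made up 41.2 and 41.3% of that sum in WT. It was the most abundant of the 30 XTH genes in all 14 libraries outside the labelled triple mutant, with 32.8 to 47.7% of the sum. XTH9 held 23.1 and 23.2% of the sum in the labelled triple mutant, where XTH24 led with 24.5 and 24.9%, against 5.99 and 6.89% in WT. With TCH4, XTR6 and EXGT-A3 added, the sum of all 33 XTH genes was 1900.0 and 1945 FPKM in WT and lower in the labelled triple mutant, at 1760 and 1775 FPKM.

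The 21 alpha-expansins together were higher than in WT in both the labelled nup82 nup136 double mutant and the labelled triple mutant, and in both the leading gene differed from WT. Their summed level was 334 and 352 FPKM in WT, 467 and 457 FPKM in the labelled nup82 nup136 double mutant and 462 and 467 FPKM in the labelled triple mutant. In the other genotypes it ran from 334 FPKM in a library of the labelled nup50c nup82 double mutant to 417 FPKM in a nup136 library. EXPA4 led them in WT, in the single mutants and in the labelled nup50c nup82 double mutant, with 18.7 to 22.7% of the sum. EXPA1, an alpha-expansin known from leaves and guard cells, held 14.1 and 14.3% of the sum in WT and led it in the nup50c nup136 double mutant, the labelled nup82 nup136 double mutant and the labelled triple mutant. EXPA1 alone held 32.5 and 33.1% of all alpha-expansin FPKM in the labelled triple mutant. These sums are descriptions with 2 libraries per genotype and were not tested.

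**Figure D1:**
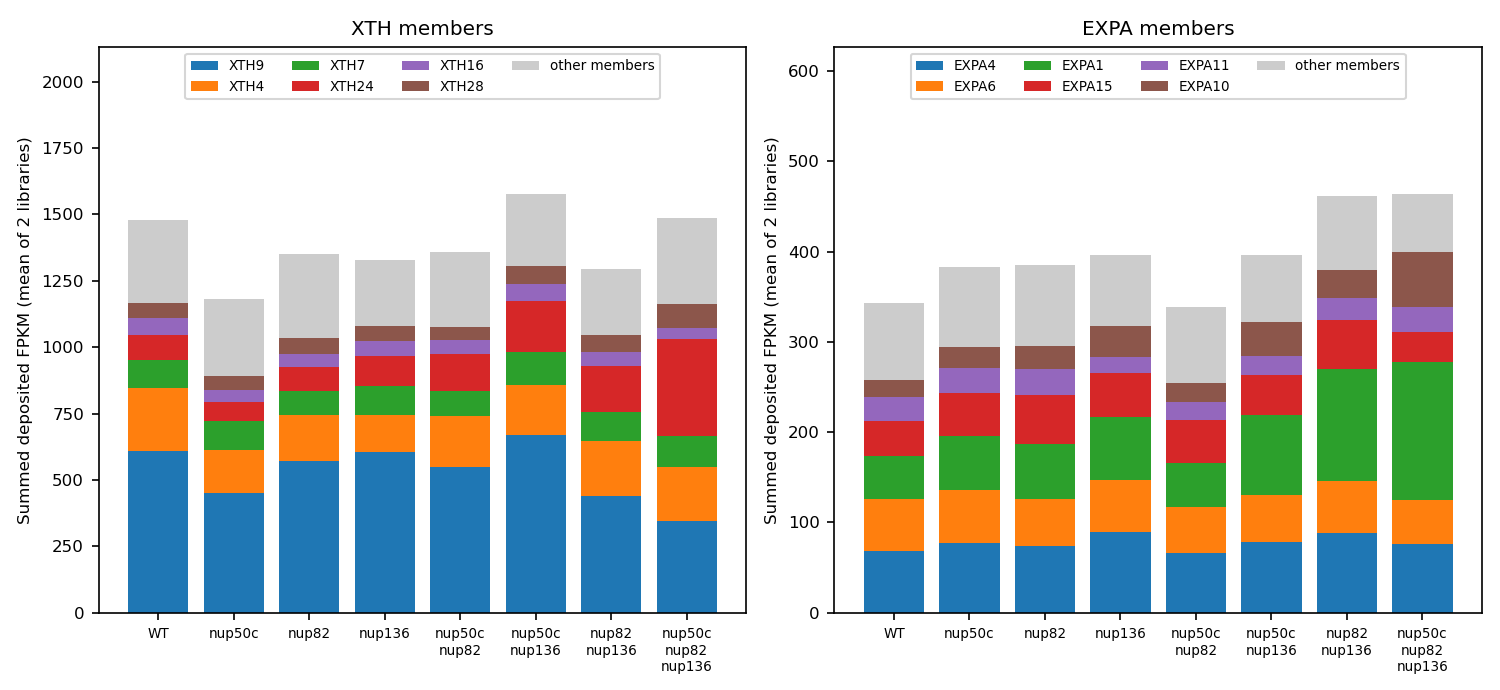
Summed deposited FPKM (mean of 2 libraries) of the 30 XTH genes (left) and the 21 alpha-expansins (right) in each of the 8 genotypes, with 6 genes of each family in colour and the rest in grey. XTH24 (red, left) and EXPA1 (green, right) fill more of the bar in the labelled triple mutant than in any other genotype, while the XTH total is close to that of WT.

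In the labelled triple mutant against WT, 9 of the 41 tested genes rose and 18 fell, beside 23.3% and 24.3% of all tested genes. The share that rose, 22%, was close to that of all genes, and the share that fell was 43.9%. The median log2 fold change of the 41 was -0.17, against -3.82e-05 for all tested genes. In whole seedlings, fewer cells of a type and less RNA per cell cannot be told apart. Markers of organs moved in the same comparison. The summed level of 12 root markers was 171.0 to 174.4 CPM in WT and 101.5 to 105.1 CPM in the labelled triple mutant, with 7 lower, 1 (WOX5) higher and none at 0. All 5 root hair markers were lower, from a sum of 40.9 to 47.5 CPM down to 13.3 to 16.8 CPM. Of these 5, EXPA7 and EXPA18 are themselves alpha-expansins outside the set, with 11.1 and 13.3 CPM of that sum in WT. RHD6, RSL4 and COBL9 fell with a log2 fold change of -1.45, -1.56 and -1.65. All 9 green tissue markers were lower, from 36145 to 38090 CPM down to 23996 to 24221 CPM. The part of these shifts in the results on wall genes was not tested.

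Among the other mutants, the fold change against WT passed the test for fewer wall genes. In nup50c, 3 rose and 7 fell, beside 0.923% and 0.812% of all tested genes. In nup82, 3 rose and 2 fell, beside 0.856% and 0.535%. In nup136, 7 rose and 11 fell, beside 6.56% and 7.83%. In the labelled nup50c nup82 double mutant, 2 rose and 1 fell, beside 0.562% and 0.343%, or 1 and 2 with DESeq2 size factors. In the nup50c nup136 double mutant, 8 rose and 10 fell, beside 11.7% and 13.1%. In the labelled nup82 nup136 double mutant, 7 rose and 11 fell, beside 7.95% and 11.3%. In each of these 6 comparisons the share of the 41 that passed the test exceeded the share of all genes in both directions. The median level of the tested members was 25.5 CPM, against 15.6 CPM over all tested genes. The part of this difference in level in these shares was not tested.

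The smaller of these counts changed when single libraries were left out. Leaving out a compared library of WT or of a single mutant leaves that genotype without a replicate. It also lowered the calls over all tested genes, so these changes are not particular to the wall genes. In nup50c they came to 0 up and 1 down without nup50c replicate 2, to 1 and 4 without nup50c replicate 1, to 1 and 3 without WT replicate 1, and to 4 down without WT replicate 2. In nup82 only 1 rose when any of the 4 WT and nup82 libraries was left out, and 0 or 1 fell, the latter also without either library of the labelled triple mutant. In nup136 6 fell once WT replicate 1 was left out, and 5 once nup136 replicate 2 was. In the nup50c nup136 double mutant the counts were 5 and 5 without WT replicate 1, 3 rose without its replicate 2, and 5 fell without its replicate 1. In the labelled nup82 nup136 double mutant they were 4 and 7 without WT replicate 1, and 7 fell without its own replicate 1. In the labelled nup50c nup82 double mutant they ranged from 0 to 2 in either direction and moved with 12 of the 16 libraries for the genes that rose and with 10 for those that fell. The counts in the labelled triple mutant stayed between 9 and 11 up and between 14 and 18 down, whichever library was left out.

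**Figure D2:**
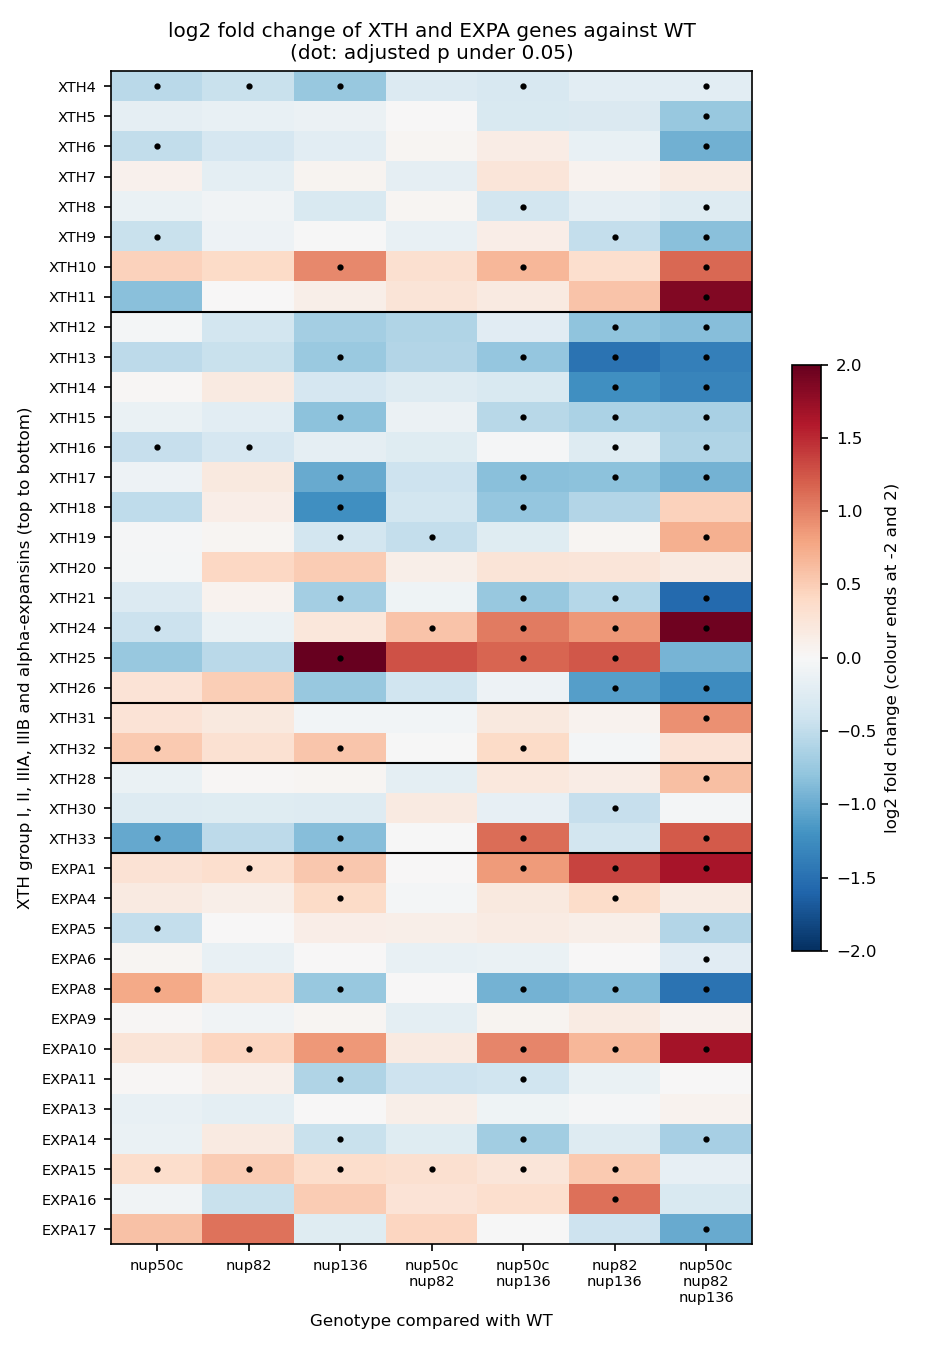
Log2 fold change against WT of the 39 tested genes with a mean of at least 1 CPM (rows, by family group) in the 7 mutants (columns), with a dot where the adjusted p was under 0.05. EXPA8, XTH13, XTH15, XTH17 and XTH21 are blue with a dot, and EXPA1 and EXPA10 red with a dot, in all 4 genotypes with nup136, and XTH18, XTH19, XTH25 and XTH33 change colour between genotypes.

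Counted over the 7 mutants, 35 of the 41 tested genes (85.4%) rose or fell in at least 1, beside 55.1% of all tested genes. The 6 that passed the test in none were XTH7, XTH20, XTH29, EXPA9, EXPA12 and EXPA13. XTH7 lay between 108 and 175 CPM and EXPA9 between 23.4 and 31.2 CPM in all libraries, while XTH29 and EXPA12 stayed under 1 CPM. The log2 fold change in the labelled triple mutant was 0.16 ± 0.09 (SE) for XTH7 with an adjusted p of 0.139, and 0.08 ± 0.10 for EXPA9 with an adjusted p of 0.582. XTH24 rose in 4 mutants and fell in 1, XTH33 rose in 2 and fell in 2, XTH19 rose in 1 and fell in 2, and EXPA8 rose in 1 and fell in 4. These 4 genes are 9.76% of the 41, beside 2.15% of all tested genes that rose in at least 1 mutant and fell in at least 1 other.

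The 8 tested genes of XTH group I are the numbers 4 to 11. In the labelled triple mutant 2 of them rose and 5 fell, beside 23.3% and 24.3% of all tested genes. XTH9 stood at 933 and 938 CPM in WT, 706 and 672 CPM in nup50c, 851 and 899 CPM in nup82, and 888 and 969.8 CPM in nup136. It stood at 802 and 887 CPM in the labelled nup50c nup82, 909.5 and 1139 CPM in the nup50c nup136, 675 and 669.6 CPM in the labelled nup82 nup136 and 527 and 525 CPM in the labelled triple mutant. Both libraries of the labelled triple mutant were below all 14 others. The log2 fold change against WT was -0.83 ± 0.08 there (adjusted p = 1.07e-08), -0.48 ± 0.08 in the labelled nup82 nup136 double mutant (adjusted p = 1.67e-04) and -0.44 ± 0.08 in nup50c (adjusted p = 4.01e-03, or 0.0992 without nup50c replicate 2).

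XTH4, known from stems and from cells that form wood, came next after XTH9 among the 30 XTH genes in WT by level per length, at 225 and 248 FPKM. TCH4, outside the set, was higher, at 293 and 335 FPKM. Not scaled for length, XTH4 stood at 365 and 401 CPM in WT. It read 275 and 252 CPM in nup50c, 268 and 297 CPM in nup82 and 237 and 217 CPM in nup136, so both libraries of each single mutant lay below both of WT. The fall was -0.54 ± 0.08 in nup50c (adjusted p = 3.34e-04), -0.44 ± 0.08 in nup82 (adjusted p = 3.80e-03) and -0.76 ± 0.08 in nup136 (adjusted p = 3.14e-07). XTH4 also fell in the nup50c nup136 double mutant, at 298 and 316 CPM. The call in nup82 was lost without nup82 replicate 1 (adjusted p = 0.142) and without WT replicate 2 (adjusted p = 0.115). In the labelled triple mutant, at 329 and 333 CPM, the fall was -0.21 ± 0.08 (adjusted p = 0.033), and it did not pass without WT replicate 2 (adjusted p = 0.279) or without either of its own libraries (adjusted p = 0.139 and 0.105).

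XTH8 fell in the nup50c nup136 double mutant, at 28.6 and 29.2 CPM against 40.5 and 34.1 CPM in WT. XTH6 fell from 45.1 and 43.8 CPM in WT to 22.6 and 22.9 CPM in the labelled triple mutant, with a log2 fold change of -0.97 ± 0.10 (adjusted p = 2.27e-08). XTH5 fell there with a log2 fold change of -0.76 ± 0.12 (adjusted p = 1.68e-05). XTH11 went the other way, from 1.47 and 1.65 CPM in WT to 5.45 and 5.85 CPM, a rise of 1.86 ± 0.33 (adjusted p = 4.76e-05). Its highest level in any other genotype was 2.84 CPM, in a library of the labelled nup82 nup136 double mutant. XTH10 rose from 3.08 and 2.66 CPM in WT to 7.13 and 5.65 CPM in the labelled triple mutant, by 1.15 ± 0.23 (adjusted p = 2.00e-04). In the nup50c nup136 double mutant it rose by 0.66, to 3.68 and 5.41 CPM. XTH10 also rose in nup136, to 5.76 and 5.40 CPM, by 0.96 ± 0.23 (adjusted p = 5.59e-03, or 0.0709 without WT replicate 2). XTH8 fell with a log2 fold change of -0.26 ± 0.11 in the labelled triple mutant (adjusted p = 0.0439), and lost that call without WT replicate 1 (adjusted p = 0.441), without replicate 2 of the labelled triple mutant (adjusted p = 0.326) and without any library of nup82 (adjusted p = 0.0502 for either) or of the labelled nup50c nup82 double mutant (adjusted p = 0.0517 for either).

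XTH group II, the numbers 12 to 26, held 13 tested genes. Of these 2 rose and 8 fell in the labelled triple mutant, beside 23.3% and 24.3% of all tested genes. The median log2 fold change of the 13 was -0.85. XTH24, first described as MERI5 in meristems, had the largest rise that passed the test in the labelled triple mutant. Its levels were 124 and 108 CPM in WT, 85.8 and 85.4 CPM in nup50c, 116 and 95.6 CPM in nup82, 143 and 127 CPM in nup136 and 188 and 157 CPM in the labelled nup50c nup82 double mutant. They were 249 and 226 CPM in the nup50c nup136 double mutant, 199.6 and 224 CPM in the labelled nup82 nup136 double mutant, and 442 and 449 CPM in the labelled triple mutant. The 3 genotypes that combine nup136 with another mutation lay above the other 10 libraries without overlap, and the labelled triple mutant above them. Against WT the labelled triple mutant was 3.84-fold higher (log2 fold change 1.94 ± 0.10, adjusted p = 7.39e-13), and the nup50c nup136 and labelled nup82 nup136 double mutants were higher by 1.03 ± 0.10 (adjusted p = 9.91e-08) and 0.87 ± 0.10 (adjusted p = 1.52e-06) on the log2 scale. In nup50c XTH24 fell, with a log2 fold change of -0.44 ± 0.10 (adjusted p = 0.0257), a call that was lost without either nup50c library (adjusted p = 0.132 and 0.216) and without WT replicate 1 (adjusted p = 0.333).

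Several group II genes known from roots fell in the labelled triple mutant. XTH21, needed for root growth, fell from 8.73 and 8.24 CPM in WT to 2.74 and 3.01 CPM, the lowest of all genotypes (log2 fold change -1.56 ± 0.21, adjusted p = 7.74e-07). XTH14, a root enzyme, stood at 37.4 and 29.5 CPM in WT, 13.1 and 15.4 CPM in the labelled nup82 nup136 double mutant and 13.0 and 13.8 CPM in the labelled triple mutant, and no library of another genotype was below 24.98 CPM. Its fall was -1.23 ± 0.13 (adjusted p = 9.92e-08) in the labelled double and -1.32 ± 0.13 (adjusted p = 4.24e-09) in the labelled triple mutant. XTH26, a gene of root hairs, fell from 2.71 and 2.39 CPM to 1.22 and 0.918 CPM (-1.25 ± 0.32, adjusted p = 2.09e-03). The root marker sums given above moved in the same direction, and their part in these falls was not tested. Not all root-expressed members fell: XTH19 rose and XTH18 and XTH20 did not pass the test.

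XTH17, expressed in the elongating root, was low in every genotype with nup136. It stood at 37.2 and 31.1 CPM in WT, 30.1 and 33.3 CPM in nup50c, 37.8 and 40.5 CPM in nup82, and 24.4 and 27.1 CPM in the labelled nup50c nup82 double mutant. With nup136 it stood at 18.4 and 15.5 CPM in the single, 16.3 and 22.1 CPM in the nup50c nup136, 21.1 and 17.6 CPM in the labelled nup82 nup136 and 17.2 and 18.1 CPM in the labelled triple mutant. The 8 libraries with nup136 and the 8 without did not overlap. How many of all tested genes keep these libraries apart was not counted, here or for the genes below. The log2 fold change against WT was -1.01 ± 0.13, -0.83 ± 0.13, -0.82 ± 0.13 and -0.95 ± 0.13 in the same order, and each call held whichever library was left out. The summed level of the 12 root markers was 101.5 to 148.7 CPM in the 8 libraries with nup136 and 147.8 to 174.4 CPM in the 8 without, and its part in this result was not tested. XTH17 shares 92.2% of aligned coding bases with XTH18 and 88.6% with XTH19, with exact runs of up to 51 bases, so that reads could be divided among them.

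XTH13 and XTH15 also fell in all 4 genotypes with nup136. XTH15 stood at 15.7 and 13.5 CPM in WT and at 8.09 to 10.3 CPM in the 8 libraries with nup136, below the lowest library without it at 12.4 CPM. Its fall ranged from -0.56 ± 0.14 in the nup50c nup136 double mutant (adjusted p = 3.61e-03, or 0.0751 without WT replicate 1) to -0.81 ± 0.14 in nup136 (adjusted p = 1.79e-04). XTH13 fell from 5.40 and 5.21 CPM in WT to 2.20 and 1.63 CPM in the labelled nup82 nup136 double mutant (-1.47 ± 0.26, adjusted p = 1.40e-04) and to 2.14 and 2.00 CPM in the labelled triple mutant (-1.36 ± 0.25, adjusted p = 8.30e-05). In nup136 and in the nup50c nup136 double mutant its falls of -0.75 ± 0.25 (adjusted p = 0.0425) and -0.78 ± 0.25 (adjusted p = 0.021) were each lost without any 1 of the 4 libraries compared other than nup136 replicate 1, with adjusted p from 0.0719 to 0.348. The call in nup136 was also lost without either nup82 library (adjusted p = 0.0515 and 0.0522) and without replicate 1 of the labelled nup50c nup82 double mutant (adjusted p = 0.0501). XTH16 fell with a log2 fold change of -0.60 ± 0.08 in the labelled triple mutant (adjusted p = 1.90e-06), and XTH12 with a log2 fold change of -0.85 ± 0.24 (adjusted p = 4.41e-03), the latter lost without WT replicate 1 (adjusted p = 0.106) and without replicate 2 of the labelled triple mutant (adjusted p = 0.0797).

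XTH25 had the largest rise against WT of any member in any mutant, and the rise was in nup136. It stood at 0.656 and 0.744 CPM in WT and at 5.96 and 5.69 CPM in nup136, an 8.31-fold difference (log2 fold change 3.05 ± 0.43, adjusted p = 1.63e-05). In the nup50c nup136 and labelled nup82 nup136 double mutants it stood at 1.47 to 1.70 CPM, and in the labelled triple mutant at 0.384 and 0.344 CPM. The levels thus fell from nup136 through the double mutants with nup136 to the labelled triple mutant, with no overlap between these steps. The labelled nup50c nup82 double mutant, which lacks nup136, overlapped the double mutants with it, at 1.49 and 1.91 CPM. XTH25 did not pass the test against WT there. The labelled triple mutant did not pass the test against WT (-0.94 ± 0.48, adjusted p = 0.115) but was below the nup50c nup136 double mutant with a log2 fold change of -2.10 ± 0.46 (adjusted p = 1.37e-03) and below the labelled nup82 nup136 double mutant with a log2 fold change of -2.17 ± 0.46 (adjusted p = 7.24e-04). Against WT the 2 double mutants with nup136 gave 1.16 (adjusted p = 0.0488) and 1.24 (adjusted p = 0.0439). Both calls were lost without any 1 of the 4 libraries compared (adjusted p = 0.0907 to 0.202) and without either nup136 library (0.0601 to 0.0715). The first was also lost without either library of the labelled triple mutant, either of the labelled nup50c nup82 double mutant or nup50c replicate 1 (0.0506 to 0.0546).

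The hydrolase subgroup (IIIA) has 2 genes, XTH31 and XTH32, whose enzymes shorten xyloglucan and are known from roots. XTH31 stood at 51.6 and 53.7 CPM in WT and at 101.7 and 96.6 CPM in the labelled triple mutant, above all 14 other libraries, of which the highest had 68.6 CPM. The rise was 0.91 ± 0.10 (adjusted p = 1.21e-07), and no other mutant passed the test. XTH32 stood at 14.0 and 18.6 CPM in WT and rose in nup50c, to 22.5 and 24.4 CPM (0.53 ± 0.12, adjusted p = 0.0198), and in nup136, to 23.4 and 24.5 CPM (0.56 ± 0.12, adjusted p = 2.20e-03). Both calls rest on the lower WT library: without WT replicate 1 the adjusted p was 0.426 in nup50c and 0.105 in nup136, and the call in nup50c was also lost without nup50c replicate 2 (adjusted p = 0.251). XTH32 also rose in the nup50c nup136 double mutant, by 0.38, to 21.1 and 21.3 CPM. Whether that call holds without single libraries is not given here. In the labelled triple mutant XTH32 gave 0.27 ± 0.12 (adjusted p = 0.0662).

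Group IIIB gave 2 rises and no fall among 4 tested genes in the labelled triple mutant, beside 23.3% and 24.3% of all tested genes. XTH28, needed for growth of stamen filaments, rose from 84.7 and 89.6 CPM to 129.8 and 135.8 CPM (0.61 ± 0.09, adjusted p = 4.34e-06). XTH33, which is predicted to be anchored in the plasma membrane, stood at 6.22 and 6.43 CPM in WT, 3.66 and 2.52 CPM in nup50c, 4.05 and 2.95 CPM in nup136 and 4.39 and 5.39 CPM in the labelled nup82 nup136 double mutant. It stood at 10.2 and 17.1 CPM in the nup50c nup136 double mutant and at 15.9 and 13.6 CPM in the labelled triple mutant. The single mutants nup50c and nup136 were thus below WT and their double mutant above it, without overlap. The changes were -1.03 ± 0.24 in nup50c (adjusted p = 0.0207), -0.85 ± 0.23 in nup136 (adjusted p = 0.015), 1.11 ± 0.22 in the nup50c nup136 double mutant (adjusted p = 5.37e-04) and 1.22 ± 0.22 in the labelled triple mutant (adjusted p = 6.48e-05). The falls were lost without WT replicate 1 (adjusted p = 0.108 in nup50c and 0.0638 in nup136), WT replicate 2 (0.126 and 0.0782) or replicate 2 of the mutant (0.368 and 0.189), and the rise in the double mutant without its replicate 2 (adjusted p = 0.0537). XTH30 fell in the labelled nup82 nup136 double mutant with a log2 fold change of -0.46 ± 0.10 (adjusted p = 1.08e-03).

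Of the 14 tested alpha-expansins, 2 rose and 5 fell in the labelled triple mutant, beside 23.3% and 24.3% of all tested genes. EXPA1 stood at 74.2 and 76.9 CPM in WT, 92.1 and 91.9 CPM in nup50c, 96.0 and 94.6 CPM in nup82, 101.6 and 117 CPM in nup136 and 75.1 and 77.2 CPM in the labelled nup50c nup82 double mutant. It stood at 141 and 133 CPM in the nup50c nup136 double mutant, 205 and 179.6 CPM in the labelled nup82 nup136 double mutant and 237 and 236 CPM in the labelled triple mutant. All 8 libraries with nup136 were above all 8 without it. The rise was 0.53 ± 0.08 in nup136 (adjusted p = 4.26e-05), 0.86 ± 0.08 and 1.349 ± 0.08 in the double mutants (adjusted p = 1.51e-08 and 1.08e-11) and 1.65 ± 0.08 in the labelled triple mutant (adjusted p = 1.82e-14).

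EXPA10, an alpha-expansin of growing leaves and petioles, rose in the same 4 genotypes. Its levels were 28.8 and 31.5 CPM in WT, 48.2 and 62.4 CPM in nup136, 59.3 and 59.3 CPM in the nup50c nup136, 46.3 and 49.6 CPM in the labelled nup82 nup136 and 92.7 and 98.7 CPM in the labelled triple mutant. The libraries without nup136 reached 41.3 CPM at most, in nup82, and so lay below all 8 with it. The rise was 0.87 ± 0.10 in nup136 (adjusted p = 9.26e-07), 0.98 ± 0.10 and 0.67 ± 0.10 in the double mutants (adjusted p = 6.27e-08 and 2.11e-05) and 1.67 ± 0.10 in the labelled triple mutant (adjusted p = 7.12e-13). EXPA1 and EXPA10 kept all 4 of these calls whichever library was left out. Smaller rises in nup82, of 0.34 ± 0.08 for EXPA1 (adjusted p = 0.0357) and 0.43 ± 0.10 for EXPA10 (adjusted p = 0.0294), were lost without any 1 of the 4 libraries compared, with adjusted p from 0.0898 to 0.238, and that of EXPA1 also without either library of the labelled triple mutant (adjusted p = 0.0643 and 0.0645).

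EXPA8 moved in the other direction. It stood at 17.5 and 21.1 CPM in WT, 33.9 and 31.5 CPM in nup50c, 29.7 and 19.6 CPM in nup82, 19.1 and 19.5 CPM in the labelled nup50c nup82 double mutant, and between 6.53 and 11.9 CPM in the 8 libraries with nup136. The 8 libraries with nup136 were all below the 8 without it. The fall was -0.76 ± 0.17 in nup136 (adjusted p = 3.46e-03, or 0.0532 without nup136 replicate 2 and 0.0603 without WT replicate 2), -0.95 ± 0.17 and -0.89 ± 0.17 in the double mutants (adjusted p = 2.22e-04 and 6.04e-04) and -1.48 ± 0.17 in the labelled triple mutant (adjusted p = 3.48e-07). The rise in nup50c, of 0.76 ± 0.16 (adjusted p = 0.014), was lost without either nup50c library (adjusted p = 0.112 and 0.0832) and without WT replicate 1 (adjusted p = 0.223).

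The other alpha-expansins changed less. EXPA14 fell in the labelled triple mutant with a log2 fold change of -0.67 ± 0.12 (adjusted p = 3.70e-05), EXPA5 with a log2 fold change of -0.58 ± 0.12 (adjusted p = 2.89e-04) and EXPA6 with a log2 fold change of -0.22 ± 0.08 (adjusted p = 0.029). EXPA17, which acts in the emergence of lateral roots, fell from 2.17 and 2.34 CPM to 0.961 and 1.29 CPM, with a log2 fold change of -1.002 ± 0.33 (adjusted p = 0.0136), and lost the call without replicate 1 of the labelled triple mutant (adjusted p = 0.119) or WT replicate 2 (adjusted p = 0.0612). The call of EXPA6 was lost without either library of the labelled triple mutant (adjusted p = 0.076 and 0.157) and without WT replicate 2 (adjusted p = 0.225). EXPA4 and EXPA15 rose in other mutants and not in the labelled triple mutant. EXPA15 stood at 56.8 and 52.2 CPM in WT, at 62.5 to 80.8 CPM in the 12 libraries of the single and double mutants, and at 47.5 and 49.4 CPM in the labelled triple mutant, so that the latter lay below all other libraries. Its largest change was 0.53 ± 0.08 in the labelled nup82 nup136 double mutant (adjusted p = 1.89e-05), and in the labelled triple mutant it gave -0.17 ± 0.08 (adjusted p = 0.0748). EXPA16 rose from 2.74 and 4.63 CPM in WT to 6.69 and 9.01 CPM in the labelled nup82 nup136 double mutant, by 1.099 ± 0.28 (adjusted p = 6.54e-03), and lost the call without WT replicate 1 (adjusted p = 0.14) or replicate 2 of that double mutant (adjusted p = 0.0786).

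**Figure D3:**
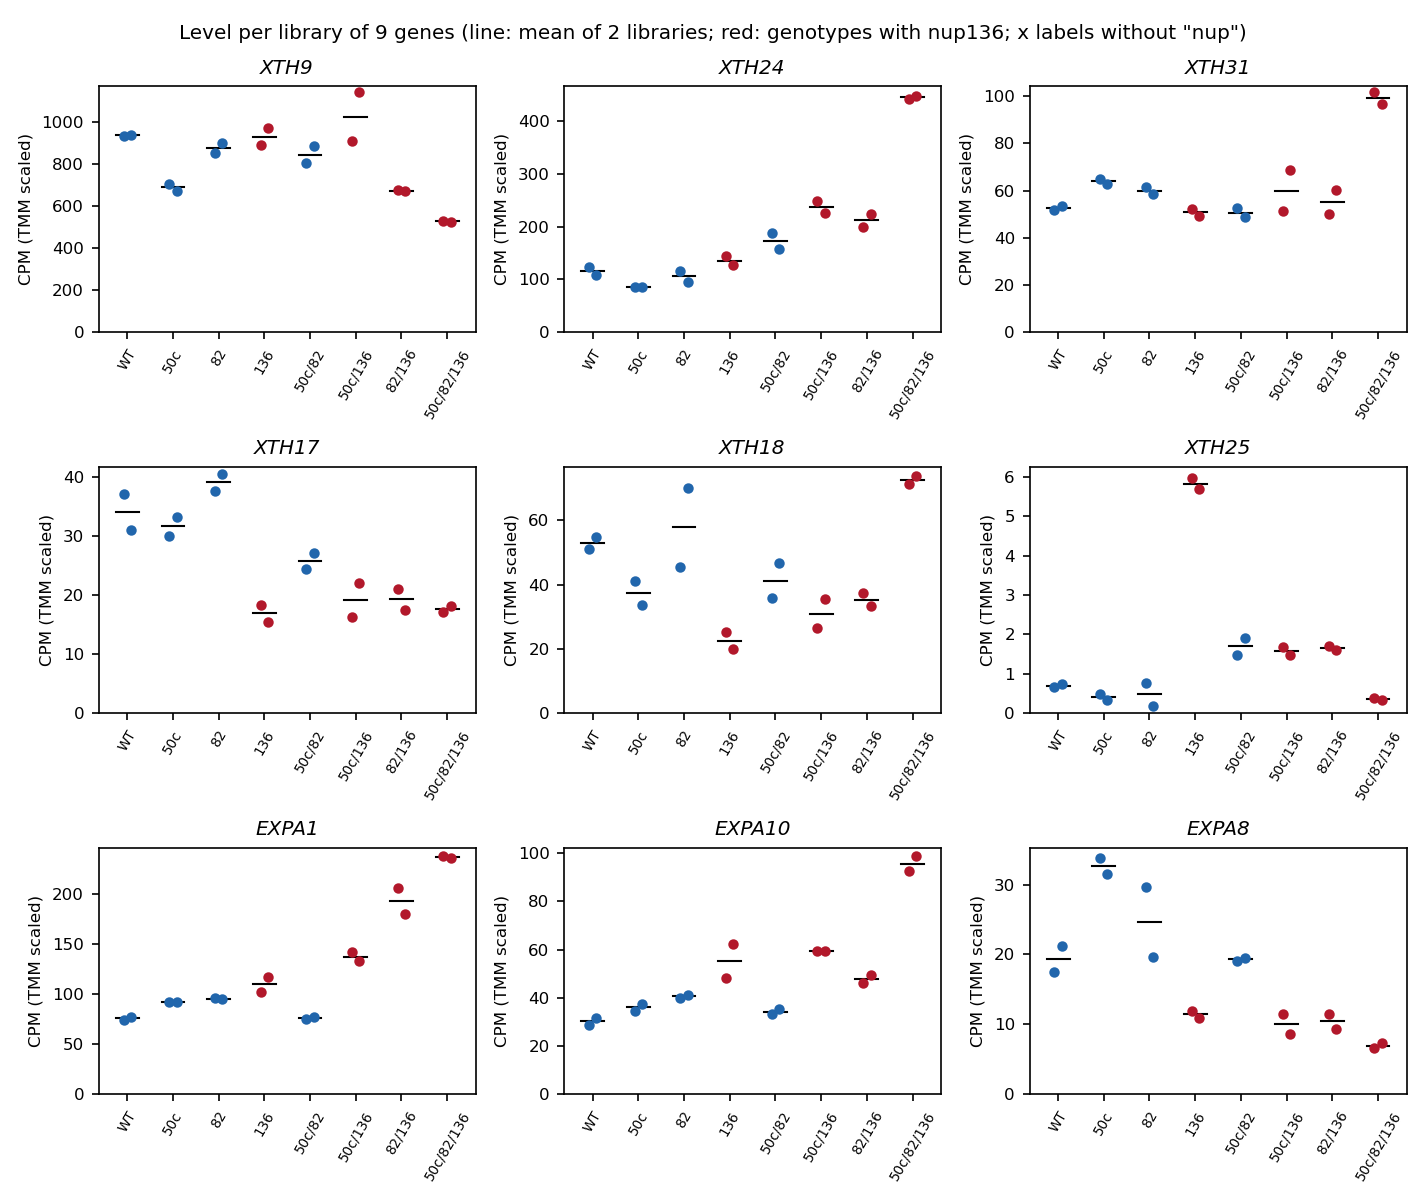
CPM after TMM scaling of 9 genes in each of the 16 libraries (points) with the mean of the 2 libraries of a genotype (line), genotypes with nup136 in red. XTH17, EXPA1, EXPA10 and EXPA8 separate all libraries with nup136 from all without, XTH24 and XTH31 are highest in the labelled triple mutant, and XTH25 is highest in nup136. The share of all tested genes that separate these libraries was not counted.

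Across the 4 genotypes with nup136, EXPA1 and EXPA10 rose in all against WT, and EXPA8, XTH13, XTH15, XTH17 and XTH21 fell in all, beside 2.37% and 3.26% of all tested genes. The 4 comparisons share the WT libraries. XTH21 rests on few counts, and its falls in nup136 (-0.67 ± 0.20, adjusted p = 0.0215), the nup50c nup136 double mutant (-0.77 ± 0.20, adjusted p = 5.37e-03) and the labelled nup82 nup136 double mutant (-0.57 ± 0.20, adjusted p = 0.0417) were lost without any of the 4 libraries compared (adjusted p = 0.0621 to 0.176), except that in the nup50c nup136 double mutant this was so only without its replicate 1 (adjusted p = 0.124). In the labelled nup82 nup136 double mutant it was also lost without either library of the labelled nup50c nup82 double mutant (adjusted p = 0.0504 and 0.0505) or replicate 1 of the labelled triple mutant (adjusted p = 0.0502). The 250 bases before the annotated start of these 7 genes are shown because they changed in 1 direction in all 4 genotypes. They were read from the RefSeq genome TAIR10.1, on which all 51 genes have the start and end given in the deposited table. The windows are chr1:26141476-26141725 on the plus strand for EXPA1, chr1:9259182-9259431 on the plus strand for EXPA10, chr2:16950706-16950955 on the minus strand for EXPA8, chr5:23304096-23304345 on the minus strand for XTH13, chr4:8138393-8138642 on the minus strand for XTH15, chr1:24256804-24257053 on the plus strand for XTH17 and chr2:8144631-8144880 on the plus strand for XTH21, each printed 5′ to 3′ on the strand of its gene and none overlapping another annotated protein-coding gene. Capitals mark CGTGTG or TGTCTC, or their reverse complement.
EXPA1: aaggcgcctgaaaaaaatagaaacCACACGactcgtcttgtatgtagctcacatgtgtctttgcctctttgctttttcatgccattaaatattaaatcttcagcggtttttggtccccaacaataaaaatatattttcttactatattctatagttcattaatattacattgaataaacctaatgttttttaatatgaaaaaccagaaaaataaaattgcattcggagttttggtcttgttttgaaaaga
EXPA10: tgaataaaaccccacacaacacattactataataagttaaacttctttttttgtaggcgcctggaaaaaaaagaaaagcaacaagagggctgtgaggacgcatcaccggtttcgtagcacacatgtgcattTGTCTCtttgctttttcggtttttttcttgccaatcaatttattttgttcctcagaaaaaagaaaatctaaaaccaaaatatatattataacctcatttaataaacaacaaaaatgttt
EXPA8: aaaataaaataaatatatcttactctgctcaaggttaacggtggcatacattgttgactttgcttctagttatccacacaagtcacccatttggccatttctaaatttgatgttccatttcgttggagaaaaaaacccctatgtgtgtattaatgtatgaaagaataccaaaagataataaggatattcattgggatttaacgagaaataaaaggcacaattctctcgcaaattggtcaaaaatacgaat
XTH13: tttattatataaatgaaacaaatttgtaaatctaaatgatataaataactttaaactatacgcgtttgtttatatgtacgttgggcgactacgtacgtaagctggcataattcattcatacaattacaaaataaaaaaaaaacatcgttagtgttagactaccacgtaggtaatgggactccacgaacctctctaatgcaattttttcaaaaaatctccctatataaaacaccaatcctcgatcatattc
XTH15: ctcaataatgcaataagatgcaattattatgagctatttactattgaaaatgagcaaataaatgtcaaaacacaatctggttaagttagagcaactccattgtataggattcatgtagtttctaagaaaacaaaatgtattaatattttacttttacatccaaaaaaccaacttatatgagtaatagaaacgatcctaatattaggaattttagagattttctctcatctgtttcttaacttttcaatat
XTH17: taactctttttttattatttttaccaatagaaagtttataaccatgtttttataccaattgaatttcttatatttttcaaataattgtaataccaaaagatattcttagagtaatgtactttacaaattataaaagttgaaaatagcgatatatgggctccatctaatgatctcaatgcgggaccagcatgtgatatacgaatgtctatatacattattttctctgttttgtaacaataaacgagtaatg
XTH21: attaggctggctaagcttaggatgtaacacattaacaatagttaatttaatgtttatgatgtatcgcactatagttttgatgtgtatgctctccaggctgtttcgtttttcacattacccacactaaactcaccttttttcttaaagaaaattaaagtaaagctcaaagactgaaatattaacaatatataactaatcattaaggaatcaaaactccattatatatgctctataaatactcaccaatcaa

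Searched on both strands, the brassinosteroid response letters CGTGTG or CGTGCG stood in 6 of the 51 windows (11.8%) against 6.71% of the 27443 windows of protein-coding genes, and among the 7 printed only in that of EXPA1, from 226 to 221 bases before the start. The auxin response letters TGTCTC or TGTCGG stood in 7 of the 51 (13.7%) against 14.7% of all, and among the 7 printed only in that of EXPA10, from 119 to 114 bases before the start. The G-box letters CACGTG stood in none of the 51 windows and in 6.49% of all. EXPA1 and EXPA10 share the 14-base run ctctttgctttttc, which begins 186 and 116 bases before their starts and is found in 2 of the 27443 windows. EXPA8 and XTH17 share the 14-base run aataccaaaagata, which begins 87 and 162 bases before their starts and is also found in 2 windows. The longest run shared by the other 19 pairs was 8 to 10 bases. These are descriptions of letters in the window.

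To see whether the change that goes with nup136 depended on the other mutations, nup136 was compared with WT, and each genotype carrying nup136 with the matching genotype without it. The 4 comparisons share no library. In the nup50c background 12 of the 41 genes rose and 6 fell, beside 12.9% and 14.1% of all genes. In the nup82 background 7 rose and 11 fell, beside 8.92% and 12.6%, or 9 each with library totals as the only scaling. In the labelled nup50c nup82 background 14 rose and 17 fell, beside 22.3% and 24% of all genes. The log2 fold change had 1 sign in all 4 backgrounds for 21 genes, 9 upward and 12 downward, which is 51.2% of the 41 against 40.2% of all tested genes. EXPA1 rose in all 4 and EXPA8, EXPA14, XTH15 and XTH17 fell in all 4, beside 1.4% and 2.34% of all tested genes. Another 12 genes, 29.3% of the 41, passed the test in both directions in different backgrounds, beside 3.67% of all tested genes. Across the 41 genes, Pearson r between 2 backgrounds lay between 0.0176 and 0.55, and across all 22427 genes between 0.122 and 0.542. The pairs did not rank alike. The nup50c and nup82 backgrounds gave 0.0176 in the 41 genes and 0.440 in all genes, and WT and nup82 gave 0.55 and 0.122. The 41 include EXPA12, which had 0 counts in nup50c, and its part in these values was not tested. They are a description over genes that share libraries within each comparison.

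Single libraries moved some of these counts, and leaving out a compared library of WT or of a single mutant also lowered the calls over all genes. In the nup50c background 3 fell without nup50c replicate 2 or without replicate 1 of the nup50c nup136 double mutant. In the nup82 background 4 rose without nup82 replicate 2 or replicate 2 of the labelled nup82 nup136 double mutant, and 7 fell without nup82 replicate 2. EXPA14 lost its call there without nup82 replicate 2 (adjusted p = 0.12), in nup136 without nup136 replicate 1 (0.0852) or WT replicate 1 (0.13), and in the labelled nup50c nup82 background without replicate 1 of that double mutant (0.0506). XTH15 lost its call in the nup50c and nup82 backgrounds without any 1 of the 4 libraries compared (adjusted p = 0.0545 to 0.145), and in the labelled nup50c nup82 background without replicate 2 of that double mutant (0.0508).

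The difference between the nup136 effect in another background and that in WT was tested directly. In the nup50c background it was positive for 6 genes and negative for 3, beside 2.45% and 2.72% of all genes. In the nup82 background it was positive for 3 and negative for 4, beside 3.44% and 5.33%. In the labelled nup50c nup82 background it was positive for 11 and negative for 9, beside 11.5% and 12.7%. The number that was negative in the nup50c background was 1 without WT replicate 1 or nup50c replicate 1, and the number that was positive in the nup82 background was 5 without nup136 replicate 1. XTH24 and XTH4 had a positive difference in all 3 backgrounds. The 3 differences subtract the same change of nup136 against WT, so they are not separate results. For XTH4 that change was -0.76. XTH24 changed with nup136 by 0.22 ± 0.10 in WT, 1.47 ± 0.10 in nup50c, 1.00 ± 0.10 in nup82 and 1.37 ± 0.10 in labelled nup50c nup82.

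Members with opposite changes stand out in the comparison of the WT and the labelled nup50c nup82 backgrounds. XTH18 stood at 51.2 and 55.0 CPM in WT, 25.2 and 19.8 CPM in nup136, 35.9 and 46.6 CPM in the labelled nup50c nup82 double mutant and 71.4 and 73.9 CPM in the labelled triple mutant. With nup136 it thus fell with a log2 fold change of -1.23 ± 0.23 in WT (adjusted p = 6.76e-03, or 0.0747 without nup136 replicate 2) and rose by 0.82 ± 0.23 in labelled nup50c nup82 (adjusted p = 0.0147, or 0.0876 without replicate 1 of that double mutant and 0.0551 without replicate 2 of the labelled triple mutant), a difference of 2.05 ± 0.33 (adjusted p = 1.39e-03). XTH19 gave -0.37 ± 0.10 and 1.19 ± 0.10, a difference of 1.56 ± 0.15 (adjusted p = 1.18e-08). The fall of XTH19 in nup136 (adjusted p = 0.0157) was lost without nup136 replicate 2 (0.251), WT replicate 1 (0.111) or WT replicate 2 (0.055). XTH33 gave -0.85 ± 0.23 and 1.23 ± 0.22, a difference of 2.08 ± 0.32 (adjusted p = 2.96e-05), and XTH25 gave 3.05 ± 0.43 and -2.21 ± 0.46, a difference of -5.27 ± 0.63 (adjusted p = 5.87e-07). EXPA11 fell with nup136 in WT with a log2 fold change of -0.61 ± 0.11 and rose in labelled nup50c nup82 by 0.43 ± 0.10, and EXPA15 rose in WT by 0.35 ± 0.08 (adjusted p = 2.87e-03, or 0.0692 without WT replicate 2) and fell there with a log2 fold change of -0.49 ± 0.08.

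**Figure D4:**
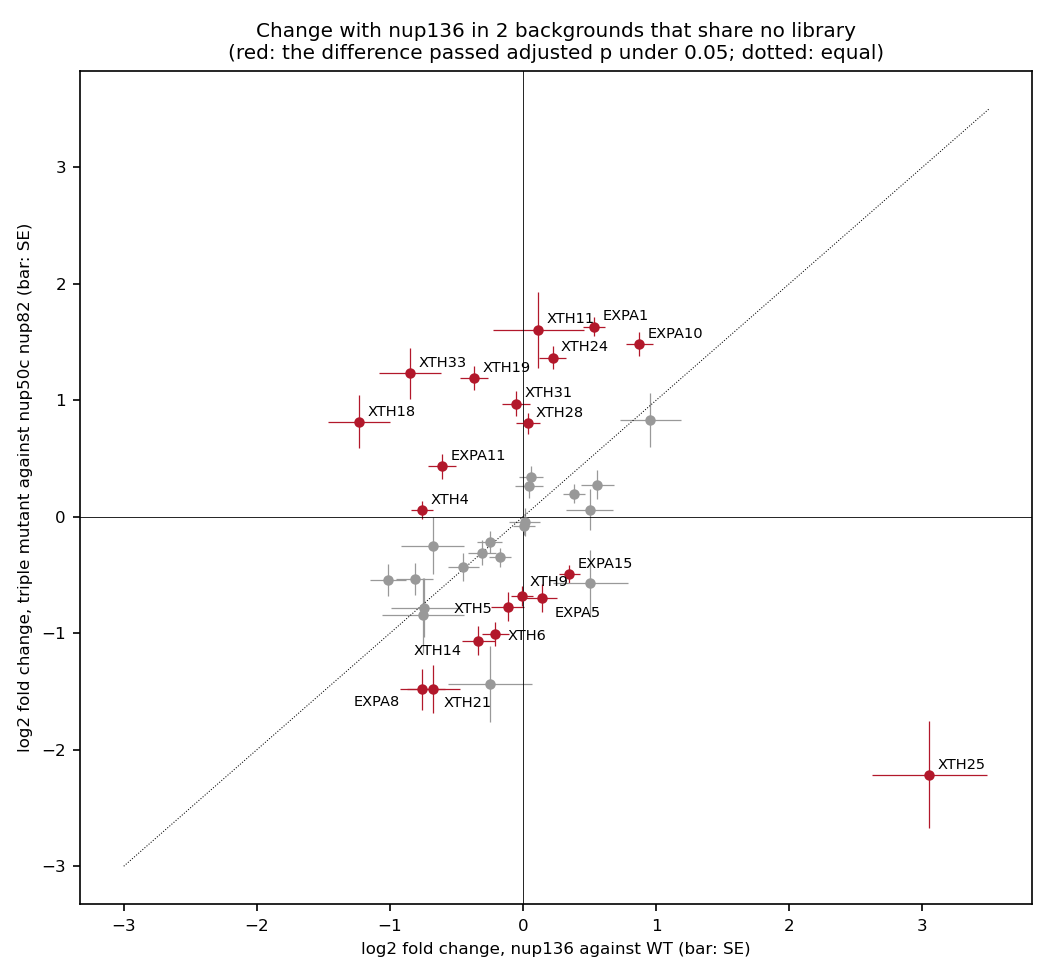
Log2 fold change with nup136 in WT (x axis) and in the labelled nup50c nup82 background (y axis) for the 39 tested genes with a mean of at least 1 CPM, with SE bars; red points are genes whose difference passed the test and the dotted line marks equal change. XTH33, XTH18, XTH19 and EXPA11 fell in WT and rose in the other background, XTH25 did the opposite, and EXPA1, EXPA10 and EXPA8 moved further in the direction they had in WT.

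The third mutation was examined by setting the labelled triple mutant against the double mutants with nup136. Against nup50c nup136, 9 genes rose and 12 fell, beside 10.1% and 11.9% of all genes. Against labelled nup82 nup136, 12 rose and 12 fell, beside 14.9% and 14.9%. The 2 comparisons share the libraries of the labelled triple mutant, so their values are given side by side only. XTH24 gave 0.91 ± 0.10 and 1.07 ± 0.10, XTH31 0.72 ± 0.10 and 0.85 ± 0.10, and XTH19 0.95 ± 0.10 and 0.66 ± 0.10. XTH9 gave -0.96 ± 0.08 and -0.35 ± 0.08, and XTH6 -1.12 ± 0.10 and -0.81 ± 0.10. XTH33 differed from labelled nup82 nup136 by 1.59 ± 0.23 (adjusted p = 7.20e-06).

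Several members lie side by side in the genome, and neighbours did not always move together. On chromosome 4 of TAIR10.1, XTH24 (14819192 to 14820595), XTH18 (14825757 to 14827211) and XTH19 (14828712 to 14830224) follow each other with no other protein-coding gene between them. In the labelled triple mutant XTH24 and XTH19 rose, by 1.94 ± 0.10 and 0.71 ± 0.10 (adjusted p = 2.53e-06), and XTH18 gave 0.45 ± 0.22 (adjusted p = 0.127). In nup136 XTH18 and XTH19 fell while XTH24 gave 0.22 ± 0.10 (adjusted p = 0.155). XTH18 and XTH19 share 89.2% of aligned coding bases and an exact run of 68 bases, so that their counts could share reads. On chromosome 5, XTH13 (23302787 to 23304095), XTH25 (23304782 to 23306440) and TCH4 (23307006 to 23308680) are adjacent, and in nup136 XTH13 fell (the call that single libraries decide), XTH25 rose 8.31-fold and TCH4 fell with a log2 fold change of -1.40 ± 0.13 (adjusted p = 1.88e-06). XTH12 and XTH13, 89.7% identical with a shared run of 47 bases, are near copies as well.

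The 10 untested genes were XTH1, XTH2, XTH3, EXPA2, EXPA20 and EXPA21 to EXPA25. XTH1 and EXPA22 to EXPA25 had 0 counts in all 16 libraries, and the highest count of any untested gene in 1 library was 20, for EXPA2 in the labelled nup82 nup136 double mutant. EXPA23 and EXPA25 share 97.5% of aligned coding bases and a run of 219 bases, so reads from either could have been lost to both.

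Family genes left out by the naming rule moved in both directions in the labelled triple mutant. TCH4, a touch-induced XTH gene with 502 CPM in WT, fell to 98.6 CPM (-2.35 ± 0.13, adjusted p = 5.18e-10), and EXPA7 and EXPA18, which are specific to root hairs, fell with a log2 fold change of -1.57 ± 0.20 and -1.54 ± 0.16 as did the other root hair markers. XTR6 rose by 1.36 ± 0.26, EXGT-A3 by 0.54 ± 0.07 and EXP3 by 0.51 ± 0.13. The call of EXP3 was lost without WT replicate 1 (adjusted p = 0.0592), and the other 5 kept theirs whichever library was left out.

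Other genes of wall synthesis and of growth control were counted in the labelled triple mutant. Of 13 genes of xyloglucan synthesis none rose and 5 fell, with a median log2 fold change of -0.23. They included CSLC12, a glucan synthase of the xyloglucan backbone (-1.42 ± 0.19), XLT2, a galactosyltransferase (-0.87 ± 0.13), and XXT1, a xylosyltransferase (-0.70 ± 0.10). The count was 3 down without replicate 1 of the labelled triple mutant and 1 up without WT replicate 2. Of 7 tested beta-expansin and expansin-like genes none rose and 4 fell, with a median of -0.87, among them EXPB1 (-2.59 ± 0.21), EXLB1 (-2.43 ± 0.18) and EXLA3 (-1.03 ± 0.24).

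Of 9 genes of cellulose synthesis in the primary wall none rose and 4 fell, among them CESA2 (-0.66 ± 0.09), CSI1 (-0.64 ± 0.10) and CESA5 (-0.54 ± 0.09). In that list 1 rose with library totals as the only scaling, with the DESeq2 Wald test or without either library of the labelled nup82 nup136 double mutant. Of 4 genes that trim xyloglucan side chains 2 rose and 1 fell, and each of these calls was lost without at least 1 library: 0 rose without WT replicate 2 and 1 without each other library of the 2 genotypes, and 0 fell without WT replicate 1 or replicate 2 of the labelled triple mutant. Of 24 growth regulators 5 rose and 9 fell, with 3 up without WT replicate 1 and 4 down without WT replicate 2. The light-signalling factor PIF3 (1.07 ± 0.13) and BR6OX2, an enzyme of brassinosteroid synthesis (1.04 ± 0.13), rose, while PIF4 fell with a log2 fold change of -1.46 ± 0.08 (adjusted p = 1.88e-13) and PIF5 with a log2 fold change of -0.66 ± 0.08 (adjusted p = 3.29e-07). Beside all of these lists, 23.3% of tested genes rose and 24.3% fell in the same comparison.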

How the data were processed

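The deposited gene counts and FPKM of 16 libraries from whole seedlings, 2 per genotype, were used as the authors made them. The submitters' processing notes name HISAT2 2.0.4, HTSeq 0.6.1p1 and the build TAIR10 without giving their roles. Libraries were strand-specific per the labels, but the strand setting of the counting and the treatment of reads with several matches are not stated in those notes or labels. The deposited FPKM follow the deposited counts and gene lengths, with deviations of at most 5.48e-10 over 17645 genes, and were used only to compare levels between genes.

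Counts were tested with edgeR 4.0.16 (limma 3.58.1, R 4.3.3) by the quasi-likelihood test, with TMM scaling, a minimum count of 10 in filterByExpr, 1 coefficient per genotype over all 16 libraries and Benjamini-Hochberg adjustment over 22427 genes in each of 15 comparisons. The threshold was an adjusted p of 0.05. The procedure was run on simulated data with changes put only into genes above a minimum mean count. Its outcome is not given here and does not cover members below that count. Errors after ± are standard errors of log2 fold changes.

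The members and lists were chosen with earlier results of these data known. Named in a comparison were up to 8 members per direction with the largest changes past the threshold and a mean of at least 1 CPM, together with the most abundant members, tandem neighbours, XTH31, XTH32 and the left-out family genes. Other members are named to account for all of them, a choice made with their values in view.

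The alternatives were scaling by DESeq2 1.42.0 size factors or by library totals alone, no filter, the DESeq2 Wald test, a replicate block and each library left out. Those for the other gene lists and for called members beyond the 8 largest were chosen after seeing the data. Promoter and protein tables foreseen in the design were not used here. The 250 bases before each gene start were read from the TAIR10.1 genome instead, and no protein was compared.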

Additional observations from a re-analysis of the deposited data

Results flagged for a closer look

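The change that goes with nup136 was set against its size in WT by a direct test of the difference, in edgeR over all 22427 genes, and the members below passed an adjusted p of 0.05. Values are differences in log2 fold change, with positive values meaning a more positive change with nup136 in the other background than in WT. Each background was set against the same nup136 and WT libraries, so the differences are not separate results. With 2 libraries per genotype, no library was examined as standing apart from its own group.

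In the nup50c background the difference was positive at 2.99 for XTH33, 1.25 for XTH24, 0.98 for XTH4, 0.85 for XTH6, 0.60 for XTH16 and 0.58 for XTH9. It was negative at -0.95 for EXPA8, -0.70 for XTH32 and -0.46 for EXPA15.

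In the nup82 background the difference was positive at 0.99 for XTH4, 0.78 for XTH24 and 0.48 for EXPA1. It was negative at -1.08 for XTH14, -0.90 for XTH32, -0.63 for EXPA10 and -0.37 for XTH9.

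In the labelled nup50c nup82 background the difference was positive at 2.08 for XTH33, 2.05 for XTH18, 1.56 for XTH19, 1.49 for XTH11, 1.14 for XTH24, 1.101 for EXPA1, 1.04 for EXPA11 and 1.02 for XTH31. It was negative at -5.27 for XTH25, -0.84 for EXPA15, -0.84 for EXPA5, -0.80 for XTH21, -0.80 for XTH6, -0.73 for XTH14, -0.72 for EXPA8 and -0.67 for XTH9.

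In the nup50c background the differences of XTH32 and EXPA15 were lost when single libraries were left out. So were those of EXPA8 in the nup50c and labelled nup50c nup82 backgrounds, XTH9 in the nup82 background and XTH11 in the labelled nup50c nup82 background. No cause was tested for any of them.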

How the results depend on the processing

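No named fold change turned its direction under any of these settings. The check covered 303 fold changes. They were the named ones, all other called members and, in the labelled triple mutant, called genes of the other lists and left-out family genes. Those that no longer passed numbered 2 with DESeq2 size factors, 8 with library totals and 6 without a filter. The number was 0 with a replicate block and 1 with the DESeq2 Wald test. More calls were lost when single libraries were left out. Every library was left out for every fold change, also where it did not enter the comparison. A total over these fits would therefore understate how often a compared library mattered. In the labelled nup50c nup82 double mutant against WT, where 2 rose and 1 fell, 1 rose with DESeq2 size factors, and the number that fell became 2 with DESeq2 size factors, 5 without a filter, 2 with a replicate block and 3 with the DESeq2 Wald test. The difference of the nup136 effect in nup82 gave 6 positive and 7 negative without a filter, against 3 and 4. Of the cellulose genes 1 rose with library totals and 1 with the DESeq2 Wald test. The cause was not tested.

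With each library left out, the members that rose and fell against WT ranged from 0 to 4 and 1 to 7 in nup50c, 1 to 4 and 0 to 3 in nup82, 0 to 2 and 0 to 2 in labelled nup50c nup82, 3 to 10 and 5 to 10 in nup50c nup136, and 4 to 7 and 7 to 12 in labelled nup82 nup136, and those that fell in nup136 from 5 to 14. With nup136 in the nup50c background 3 to 6 fell, and in the nup82 background 4 to 9 rose and 7 to 12 fell. The differences ranged from 1 to 3 negative in nup50c and 3 to 5 positive in nup82. Of the other lists in the labelled triple mutant, xyloglucan synthesis gave 0 to 1 up and 3 to 6 down, trimming 0 to 2 up and 0 to 1 down, cellulose 0 to 1 up, and growth regulators 3 to 5 up and 4 to 10 down.

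No pairing by replicate number was seen over all genes. Deviations of same-numbered libraries correlated at -0.0986 to 0.0909 over 28 genotype pairs, which cannot exclude a shared batch in part of the genes. The replicate block changed no other call among the named fold changes, while over all tested genes more passed with it in every comparison. Genes under 1 CPM and near copies are the least certain, since few counts or shared reads limit them.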
